A study of Mus musculus with 8 samples.

Results

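Gasdermin and inflammasome genes are the 10 mouse genes Gsdmc2, Gsdmc3, Gsdmc4, Gsdmd, Nlrp6, Nlrc4, Naip1, Casp1, Casp4 and Il18, chosen by symbol and matched through their Ensembl identifiers among the 45706 genes counted. RNA-Seq was done on crypts, the gland-like pockets of the gut lining, released with EDTA from the small intestine (SI) and the colon (COL) of 4 wild-type C57BL/6N mice that received no treatment according to the labels, which give no age. The study's crypt protocol, given for its organoids, used the proximal small intestine and scraped off its villi. Colon was kept longer in more concentrated EDTA, so preparation and tissue cannot be told apart. A library of each tissue was made from every mouse, and the 4 SI libraries were compared with the 4 COL libraries to ask how the tissues differ before any oncogene is expressed. SI1 and COL1 came from mouse 1, SI2 and COL2 from mouse 2, SI3 and COL3 from mouse 3, and SI4 and COL4 from mouse 5. Mice 1 and 5 were female and mice 2 and 3 male. The labels skip a number before mouse 5, and the study's text numbers the mice without a gap, with the same sexes in order.

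A bulk crypt library holds RNA of all cells released, so fewer cells of a type and less RNA per cell cannot be told apart. Total counts ranged from 15969428 to 32908060 per library. The share of mitochondrially encoded counts was low (4.83% to 7.35%) in COL3, COL4, SI1 and SI4, and high (22.7% to 50.8%) in COL1, COL2, SI2 and SI3. Among the SI libraries it coincided with sex, so the sexes and this share cannot be told apart there. Levels are given as CPM, the count of a gene relative to a fixed sum of counts, scaled between libraries by edgeR's TMM factors.

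Inflammasomes are protein assemblies that sense microbial products inside a cell and activate inflammatory caspases. Activated caspase-1 matures interleukin-18, a cytokine of the gut lining, and cleaves gasdermin D, whose freed end forms pores in the plasma membrane and can end in a lytic cell death called pyroptosis. In gut epithelium the NAIP and NLRC4 proteins sense bacterial flagellin and type III secretion parts, NLRP6 takes part in antimicrobial defence, and caspase-4 (mouse caspase-11) binds bacterial lipopolysaccharide. Genes of the Gsdmc cluster are known to respond to type 2 cytokines through STAT6.

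The gasdermins lie on 1 chromosome at GRCm38, the assembly of mm10. Gsdmc2 (ENSMUSG00000056293) lies at chr15:63824346-63845177, Gsdmc3 at chr15:63857724-63878558 and Gsdmc4 at chr15:63891264-63912297, in a row on the minus strand. Gsdmd lies on the plus strand at chr15:75862327-75867408. The coding sequences of the Gsdmc genes in GENCODE vM21 have 1440 bases each. Gsdmc2 and Gsdmc3 were identical at 97.1% of the aligned positions, Gsdmc2 and Gsdmc4 at 92.9%, and Gsdmc3 and Gsdmc4 at 93%. Of 1226 windows of 60 bases that align without a gap, 397 (32.4%) were the same in all 3 genes, which bears on how well reads can tell the genes apart. The start of the coding sequence is such a window and lies in coding exon 1 of 11, at chr15:63835884-63835943 in Gsdmc2, chr15:63869238-63869297 in Gsdmc3 and chr15:63902871-63902930 in Gsdmc4.
Gsdmc2, Gsdmc3 and Gsdmc4, bases 1 to 60: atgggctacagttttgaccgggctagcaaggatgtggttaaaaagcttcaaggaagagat
The window in which the 3 genes differ most spans the end of coding exon 7 and the start of coding exon 8, with 12 of its bases in exon 7 at chr15:63827764-63827775 and the others at chr15:63826884-63826931 for Gsdmc2. Its parts lie at chr15:63861184-63861195 and chr15:63860314-63860361 in Gsdmc3, and at chr15:63894673-63894684 and chr15:63893831-63893878 in Gsdmc4. Capitals mark the 16 positions that are not the same in all 3 genes, and positions are counted from the first coding base.
Gsdmc2, bases 803 to 862: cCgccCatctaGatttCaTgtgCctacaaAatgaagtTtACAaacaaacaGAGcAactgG
Gsdmc3, bases 803 to 862: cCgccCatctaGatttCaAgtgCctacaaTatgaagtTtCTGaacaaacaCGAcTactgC
Gsdmc4, bases 809 to 868: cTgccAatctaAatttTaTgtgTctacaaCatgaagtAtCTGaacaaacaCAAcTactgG
Over whole transcripts, 48.5% of the 50-base stretches of Gsdmc2, 46.9% of those of Gsdmc3 and 39% of those of Gsdmc4 also occur in another gene, nearly always in another Gsdmc gene. Counts of single Gsdmc genes are therefore uncertain, and their sum may also lack reads that fit more than 1 of them. Gsdmd, Nlrp6, Casp1, Casp4 and Il18 had no such stretch.

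The gasdermins split by tissue. Gsdmd was 9.74-fold higher in SI, while Gsdmc2, Gsdmc3 and Gsdmc4 were 13.6-fold, 20.1-fold and 14.3-fold higher in COL. All 10 members passed the filter on low counts, and 6 were called at an adjusted p-value below 0.05 by edgeR's quasi-likelihood test, 3 higher in SI (Gsdmd, Nlrc4 and Casp4) and 3 higher in COL (the Gsdmc genes). Gsdmc3 reached the filter's count in every COL library but not in SI1 (5 counts). Its entry into the test thus rested on COL, where it was high. Over all 14491 genes tested, 28.4% were called, 15.5% as higher in SI and 12.9% as higher in COL. The SI and COL libraries did not overlap for 6 members (the 4 gasdermins, Nlrp6 and Nlrc4), against 33.5% of all genes tested. The log2 fold changes below are SI over COL with a standard error (SE), n = 4 libraries per tissue, and their adjusted p-values come from the edgeR test.

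**Figure D1:**
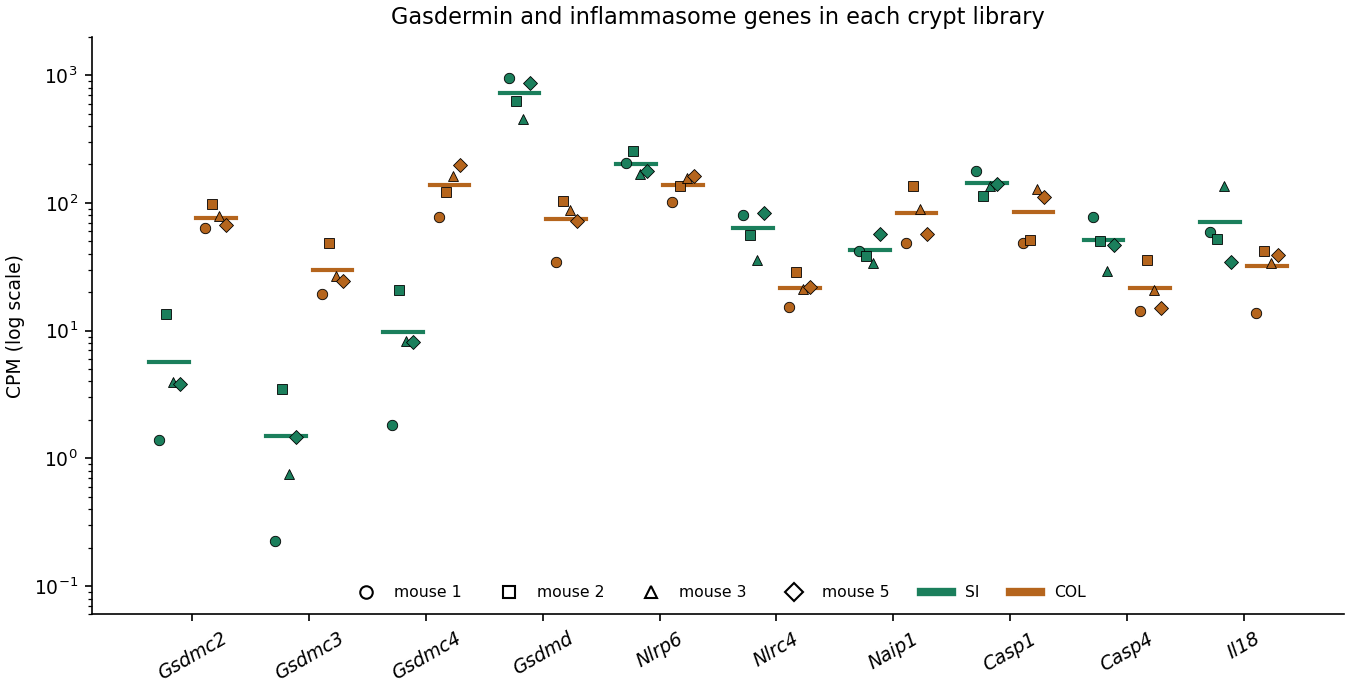
CPM of the 10 genes in each library on a log axis, with SI in green, COL in brown, a symbol for each mouse and a bar at the mean of 4 libraries. The Gsdmc genes sit lower in SI than in COL in every library, and Gsdmd, Nlrp6 and Nlrc4 sit higher.

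Gsdmd encodes gasdermin D, the pore-forming substrate of caspase-1 and caspase-4. It measured 959, 625, 455 and 869.9 CPM in SI1 to SI4, and 34.5, 103, 88.3 and 72.6 CPM in COL1 to COL4. The lowest SI library lay well above the highest COL library. The mean was 727 ± 230.0 CPM in SI against 74.6 ± 29.5 CPM in COL (SD, n = 4), with a log2 fold change of 3.28 (SE 0.44, adjusted p = 0.000255). It was higher in SI in 4 of 4 mice, by 4.19 on the log2 CPM scale in the females and 2.48 in the males. Between libraries of low mitochondrial share the log2 difference was 3.51, and between those of high share 3.16.

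Gsdmc4 was the most abundant Gsdmc gene and encodes, like Gsdmc2 and Gsdmc3, a gasdermin C protein. Gsdmc4 measured 1.81, 20.9, 8.26 and 8.10 CPM in SI1 to SI4, and 77.5, 121, 161 and 197 CPM in COL1 to COL4. Gsdmc2 measured 1.40, 13.5, 3.95 and 3.85 CPM in SI1 to SI4, and 63.7, 98.5, 78.5 and 66.8 CPM in COL1 to COL4. Every COL library exceeded every SI library, and in SI the lowest value of each gene was in SI1 and the highest in SI2. Gsdmc3 was the scarcest of the 3, with 0.227, 3.50, 0.760 and 1.47 CPM in SI1 to SI4, which rest on 5 to 58 counts, and 19.4, 49.0, 26.9 and 24.6 CPM in COL1 to COL4. The log2 fold changes were -3.77 for Gsdmc2 (SE 0.59, adjusted p = 0.000656), -4.35 for Gsdmc3 (SE 0.68, adjusted p = 0.000676) and -3.84 for Gsdmc4 (SE 0.63, adjusted p = 0.000914). Summed, they measured 16.9 ± 14.7 CPM in SI against 246 ± 57.7 CPM in COL (SD, n = 4). The log2 fold change of the sum was -3.86 (SE 0.62, adjusted p = 0.000798). How reads shared by the paralogs were counted is not given, so the sum may lack them. The coefficient of variation between mice was 81.8% to 96.4% in SI and 20.5% to 43.5% in COL. The log2 differences between libraries of low mitochondrial share were -4.89 for Gsdmc2, -5.17 for Gsdmc3 and -5.49 for Gsdmc4, and those between libraries of high share were -3.42, -4.14 and -2.87 in the same order.

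The proportions among the 3 genes differed less than their levels. Gsdmc4 took 58% ± 5.03 of their counts in SI and 55.5% ± 10.8 in COL, Gsdmc2 took 33.9% ± 5.45 and 32.2% ± 7.46, and Gsdmc3 took 8.15% ± 2.35 and 12.3% ± 4.29 (SD, n = 4). On the log2 scale, the ratio of Gsdmc3 to Gsdmc2 differed by -0.62 between SI and COL (two-sided exact permutation p = 0.114, 0.266 after adjustment over 7 ratios), and that of Gsdmc4 to Gsdmc3 by 0.60 (exact p = 0.257, adjusted 0.45). The ratio of Gsdmc4 to Gsdmc2 differed by -0.01 (exact p = 1, adjusted 1). None of these differences passed the threshold. The ratio of Gsdmd to the Gsdmc sum ran from 16.5 to 277 in SI and from 0.215 to 0.385 in COL, a log2 difference of 7.62 that was present in 4 of 4 mice. Its exact permutation p of 0.0286 is the smallest that 70 assignments of 4 and 4 libraries can give, and adjustment over the 7 ratios brought it to 0.1.

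**Figure D2:**
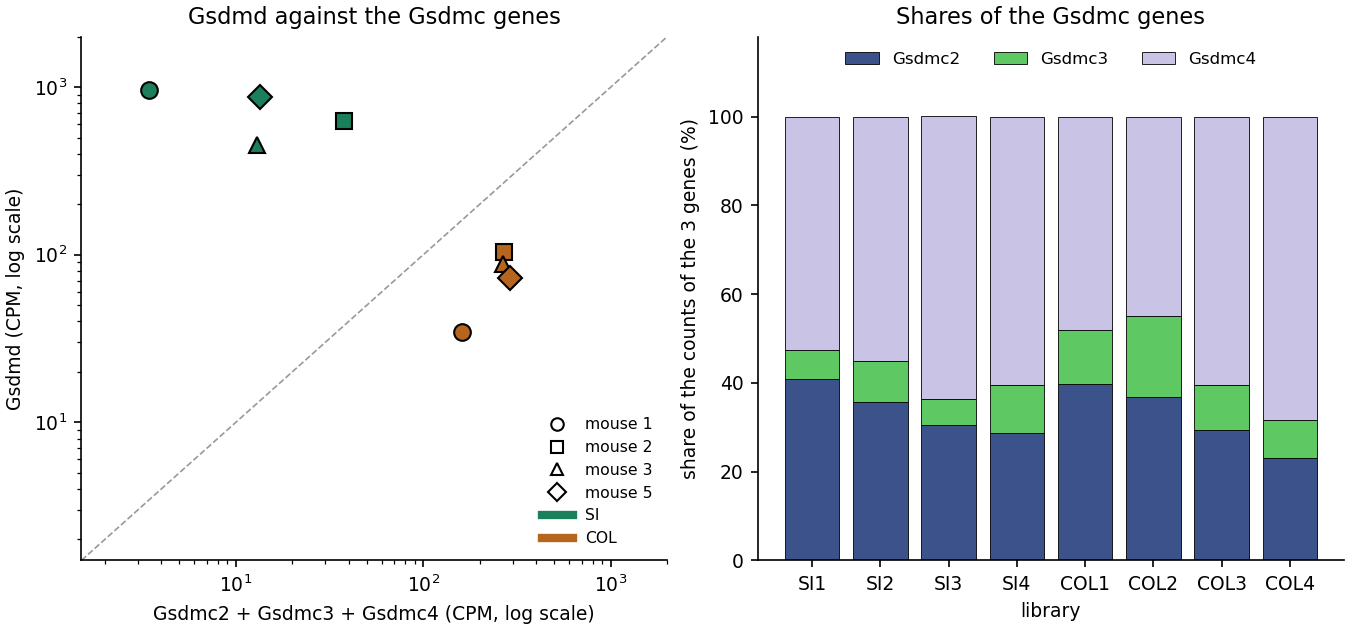
Left, Gsdmd against the summed Gsdmc genes in each library (CPM, both axes on a log scale), with a dashed line where they are equal. Right, share of each Gsdmc gene in the counts of the 3 (%), by library. The 4 SI libraries lie above the line and the 4 COL libraries below it, and Gsdmc4 holds the largest share in every library.

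Promoters of 7 of the 10 genes were found in the RefSeq table (GRCm38.p6), and that of Gsdmc3 is shown because the Gsdmc genes differed most between the tissues. It covers 250 bases before and 50 after the start of the transcript, on the minus strand at chr15:63878509-63878808. Capitals mark, in order, the motif GATAAG, which factors of the family with that name bind, 205 bases before the start, and the TATA-box motif TATATAA, 29 bases before it.
Gsdmc3 promoter: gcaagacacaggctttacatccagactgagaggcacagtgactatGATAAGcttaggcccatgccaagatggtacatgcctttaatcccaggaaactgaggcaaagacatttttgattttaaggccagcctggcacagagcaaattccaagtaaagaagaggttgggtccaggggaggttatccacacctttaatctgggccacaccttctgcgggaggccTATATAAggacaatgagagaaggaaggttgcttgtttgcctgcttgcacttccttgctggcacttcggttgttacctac
On either strand, TATATAA occurs in 3.24% and GATAAG in 7.44% of 32851 promoters of the same length. The other motifs searched were TTCNNNNGAA (STAT6), found in 6.95% of promoters, TTTATTG (CDX factors), in 4.6%, and TTTCNNTTTC (the interferon-stimulated response element), in 3.44%. None of these 3 occurred in the Gsdmc3 window. The Il18 window held a TATATAA and the STAT6 motif, 201 and 46 bases before the start, and the Nlrp6 window held a GATAAG on the reverse strand, 233 bases before it. A match is a run of letters and not a bound site.

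Of the sensors, Nlrc4 was called as higher in SI. Nlrc4 encodes the NLR protein that assembles with a ligand-bound NAIP and lies at chr17:74425438-74459142 on the minus strand. It measured 80.1, 56.3, 35.5 and 83.0 CPM in SI1 to SI4, and 15.3, 28.6, 21.0 and 22.1 CPM in COL1 to COL4. The ranges did not overlap, and within a mouse the libraries lay closest in mouse 3. The log2 fold change was 1.55 (SE 0.32, adjusted p = 0.00404), or 2.93-fold. It was 1.91 (adjusted p = 0.00171) between the 4 libraries with under 15% mitochondrial counts and 1.00 (adjusted p = 0.173) between the 4 with over 15%.

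Naip1 encodes a receptor for the needle protein of bacterial type III secretion systems and lies at chr13:100407764-100452869 on the minus strand. It measured 41.8, 38.6, 33.8 and 57.5 CPM in SI1 to SI4, and 48.2, 136, 89.5 and 57.2 CPM in COL1 to COL4. The ranges overlapped, and mice 2 and 3 had the high COL values. The log2 fold change of -0.95 (SE 0.35, adjusted p = 0.065) was not called, and 32.5% of its 50-base stretches occur in other Naip genes. The ratio of Naip1 to Nlrc4 within a library was 0.522 to 0.953 in SI and 2.59 to 4.76 in COL, so that Naip1 had fewer counts than Nlrc4 in every SI library and more in every COL library. The log2 difference of this ratio was -2.36, with the smallest exact permutation p possible (0.0286, adjusted 0.1).

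The other Naip genes encode receptors for flagellin (Naip5 and Naip6) or for the inner rod protein of the secretion system (Naip2). Naip5 measured 65.2, 92.7, 62.4 and 95.9 CPM in SI1 to SI4, and 27.2, 54.8, 22.8 and 18.3 CPM in COL1 to COL4. It was called as higher in SI (log2 fold change 1.36, SE 0.36, adjusted p = 0.0148). That call was lost without SI4 (adjusted p = 0.0522). Of the 50-base stretches of Naip5, 36.9% also occur in other genes, most often in Naip6. Naip2 had a mean of 49.4 ± 7.75 CPM in SI against 40.5 CPM in COL (adjusted p = 0.405), and Naip6 had 84.9 ± 27.3 CPM in SI against 56.6 CPM in COL (adjusted p = 0.401). The sum of Naip1, Naip2, Naip5 and Naip6 was 256 ± 48.5 CPM in SI against 211 ± 104 CPM in COL (SD, n = 4, log2 fold change 0.28, adjusted p = 0.604). The sign of this sum was thus opposite to that of Naip1 alone. Scaled by library size alone, which moved the median gene to -0.82, the log2 fold changes of Naip2 and Naip6 were -0.44 and -0.02, or 0.38 and 0.80 relative to that median, and neither was called.

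**Figure D3:**
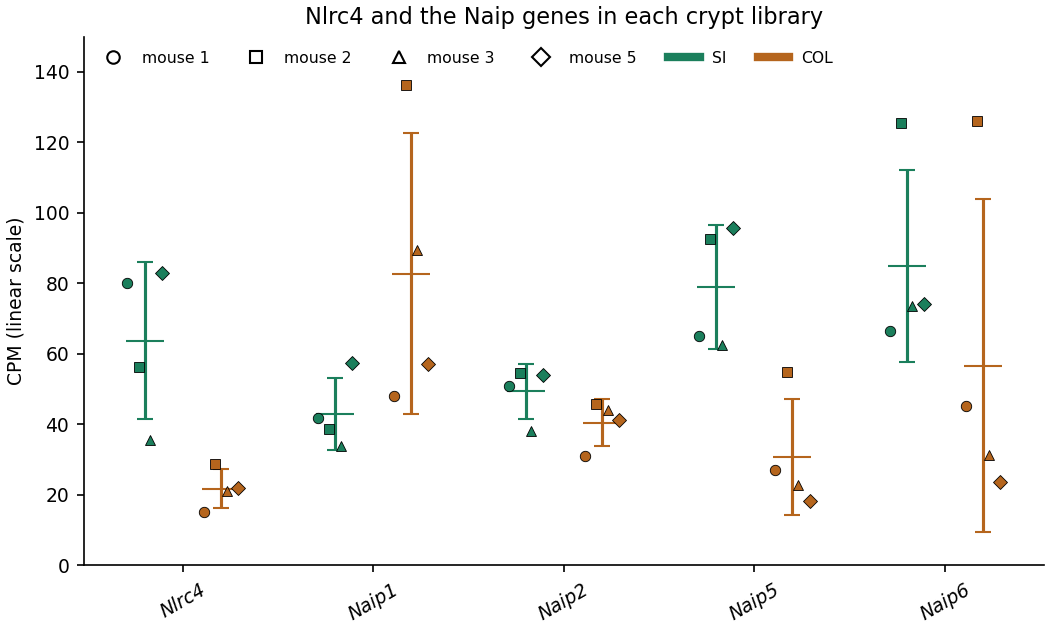
CPM of Nlrc4 and 4 Naip genes in each library on a linear axis, with a symbol for each mouse and the mean ± SD of 4 libraries. Nlrc4 and Naip5 are higher in SI (63.7 and 79.0 CPM on average, against 21.8 and 30.7 CPM in COL), whereas Naip1 averages 42.9 CPM in SI against 82.8 CPM in COL.

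Nlrp6, at chr7:140920902-140929192 on the plus strand, encodes an NLR sensor that is abundant in intestinal epithelium. It measured 204, 257, 168 and 178 CPM in SI1 to SI4, and 102, 136, 157 and 162 CPM in COL1 to COL4. The ranges did not overlap, but they lay close together. The log2 fold change of 0.54 (SE 0.29, adjusted p = 0.19) was not called. It was -0.21 when libraries were scaled by library size alone, or 0.61 relative to the median gene.

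Casp1 and Casp4 are neighbours on chromosome 9 (chr9:5298517-5307265 and chr9:5308828-5336783, plus strand) and encode the inflammatory caspases that cleave gasdermin D. Casp1 measured 179, 114, 136 and 141 CPM in SI1 to SI4, and 48.2, 51.0, 128 and 112 CPM in COL1 to COL4. The COL libraries fell into a low pair (COL1 and COL2) and a pair near the lower end of the SI range or within it (COL3 and COL4), and the same pairs had high and low mitochondrial shares, whose part in this was not tested. The log2 fold change of Casp1 was 0.75 (SE 0.37, adjusted p = 0.152), and -0.03 when scaled by library size alone, or 0.79 relative to the median gene. Casp4 measured 77.3, 50.3, 29.4 and 47.1 CPM in SI1 to SI4, and 14.3, 35.8, 21.0 and 15.1 CPM in COL1 to COL4. Only the SI3 and COL2 values crossed, and Casp4 was higher in SI in 4 of 4 mice. Its log2 fold change of 1.25 (SE 0.37, adjusted p = 0.0274) was called, but the call was lost in 5 of the 8 fits that left out a library, namely SI1, SI4, COL1, COL3 or COL4 (adjusted p = 0.0573 to 0.0816). The ratio of Casp4 to Casp1 differed by 0.39 on the log2 scale (exact permutation p = 0.543, adjusted 0.76).

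Il18, at chr9:50554827-50581840 on the plus strand, encodes interleukin-18, which is made as a precursor that caspase-1 cuts. It measured 59.1, 52.6, 137 and 34.5 CPM in SI1 to SI4, and 13.7, 42.3, 33.7 and 39.1 CPM in COL1 to COL4. SI3 was the highest library and COL1 the lowest, and the ranges overlapped. The log2 fold change of 1.14 (SE 0.46, adjusted p = 0.086) was not called, and it was 0.32 between libraries of low mitochondrial share and 1.81 between those of high share. The ratio of Il18 to Casp1 differed by 0.20 on the log2 scale (exact permutation p = 0.686, adjusted 0.8). The Il18 gene overlaps Bco2 and Tex12 on the other strand with 0 shared exonic bases. Bco2 was higher in SI (151 against 14.1 CPM), and whether the counting used the strand is not given in the sources used here.

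**Figure D4:**
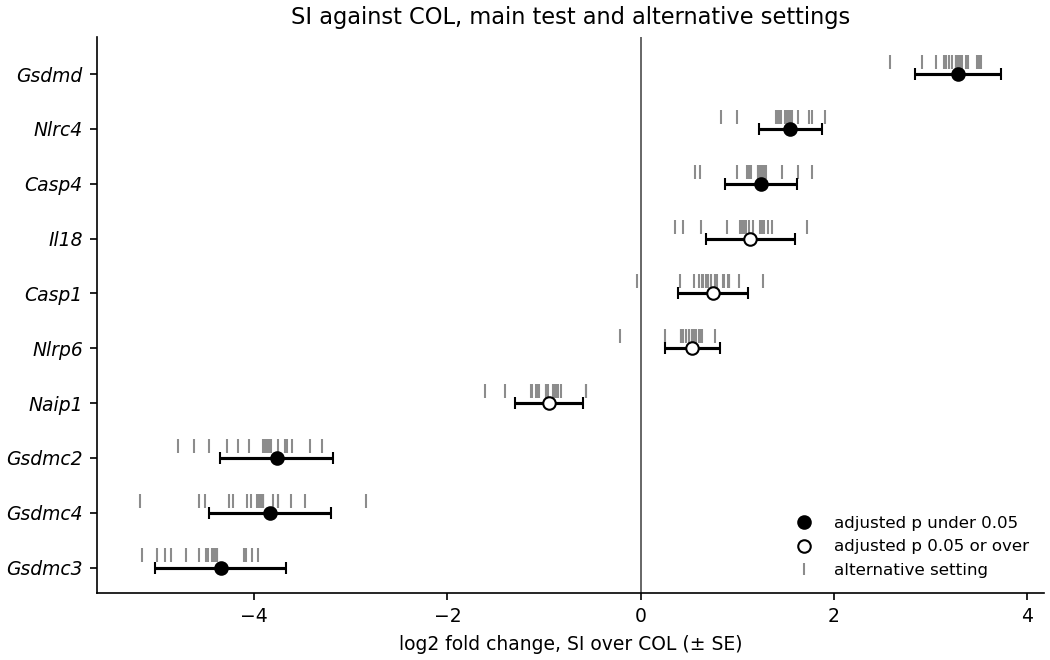
Log2 fold change of SI over COL with its SE for each gene (circles, filled where the edgeR adjusted p is under 0.05), and the values under the alternative settings (grey ticks). The Gsdmc genes stay below -2.8 and Gsdmd stays above 2.5 in all of them, while ticks of Nlrp6 and Casp1 cross 0.

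Per kilobase of exon, the order of the members differed between the tissues. In SI, Gsdmd came first with 306 ± 96.8 CPM per kb, followed by Casp1 (95.3 ± 17.9), Il18 (68.6 ± 43.9), Nlrp6 (39.7 ± 7.81), Casp4 (13.8 ± 5.32), Nlrc4 (13.3 ± 4.64) and Naip1 (7.76 ± 1.86), with the Gsdmc genes last (0.640 to 4.67 CPM per kb). Gsdmd stood apart from Casp1, and Nlrp6 from Casp4, by more than their SDs. For the other neighbours in this order, the ranges of mean ± SD overlapped. In COL, Gsdmc4 (66.7 ± 24.7 CPM per kb) and Casp1 (56.7 ± 27.6) led, followed by Gsdmc2 (33.2 ± 6.79), Gsdmd (31.4 ± 12.4), Il18 (31.2 ± 12.5), Nlrp6 (27.4 ± 5.42), Naip1 (14.96 ± 7.21), Gsdmc3 (12.9 ± 5.60), Casp4 (5.81 ± 2.68) and Nlrc4 (4.53 ± 1.14). There, these ranges overlapped for every pair of neighbours. Such an overlap does not compare the genes within each library, which was not done for this order. The exon length is the union of all annotated exons, which lowers the value of genes with many annotated isoforms. It also includes stretches shared with other genes (39% to 48.5% in the Gsdmc genes, 32.5% in Naip1), whose reads may be missing. The values of the Gsdmc genes and Naip1 may therefore be too low beside those of genes without such stretches.

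The difference between SI and COL was also compared between the sexes. No member was called in the tissue by sex interaction of edgeR, and over all genes 0 of 14491 (0%) were called, against 761 at an unadjusted p below 0.05. Naip1 differed from SI to COL by -0.10 on the log2 CPM scale in the females and -1.61 in the males (interaction adjusted p = 0.909). Casp4 differed by 2.03 in the females and 0.49 in the males (interaction adjusted p = 0.909). These were the 2 members with an unadjusted p below 0.05 in that fit.

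Variation between mice within a tissue was alike among some of the members. After the tissue means were subtracted from log2 CPM, Gsdmc2, Gsdmc3 and Gsdmc4 correlated with each other at r = 0.86 to 0.95 over the 8 libraries. Gsdmd correlated at r = 0.89 with Nlrc4, 0.81 with Naip1 and 0.80 with Casp4, and at -0.14 to 0.06 with the Gsdmc genes. Nlrp6 lay between, at 0.37 to 0.5 with the Gsdmc genes and 0.54 with Gsdmd. Casp1 and Il18 correlated at 0.43 and 0.19 with Gsdmd, and at -0.37 to -0.01 and -0.04 to 0.18 with the Gsdmc genes. These are descriptions over 8 libraries that share depth, mouse and cell makeup, and the Gsdmc genes also share sequence. Among 3641 well-expressed genes, the 5 whose within-tissue pattern was most like that of the Gsdmc genes were Fam83e (r = 0.954), Akap8, Sipa1l1, Sort1 and Ddx27 (0.915). For Gsdmd they were Ceacam20 (r = 0.987), Slco2a1, Ezh1, Eps8 and Numb (0.969), and for Nlrp6 Abca3 (r = 0.962), Fbh1, Uckl1, M6pr and Anapc1 (0.914). For Il18 they were Atp1b1 (r = 0.892), B3gnt7, Adh1, Akr1e1 and Kdm5c (0.838).

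Among 6 other gasdermin genes, 2 were tested and neither was called. Gsdme, which encodes gasdermin E, had 52.0 ± 24.5 CPM in SI against 50.3 CPM in COL (adjusted p = 0.943). Gsdma ran from 0.846 to 1.63 CPM in SI and from 0.0587 to 2.89 CPM in COL (adjusted p = 0.999), and Gsdma2, Gsdma3, Gsdmc and Pjvk were too low to test. The median log2 fold change was 0.64 over the 10 members and -0.09 over all genes tested.

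Of 14 other sensors, adaptors and cofactors, 10 were tested, with 2 called as higher in SI and 3 as higher in COL. The shares over all genes tested were 15.5% and 12.9%. Aim2, a sensor of cytosolic DNA, measured 1.36, 1.27, 1.42 and 1.60 CPM in SI1 to SI4, and 26.0, 31.4, 20.7 and 21.8 CPM in COL1 to COL4. It was 17.7-fold higher in COL (log2 fold change -4.14, SE 0.30, adjusted p = 8.57e-06) with little spread in SI. Nek7, a kinase needed by NLRP3, had 3.66 CPM in SI against 21.4 CPM in COL (adjusted p = 0.000459), whereas Nlrp3 itself was too low to test. Nlrp10 was at most 10 counts in any SI library and 46 to 107 counts in COL. Nlrp1b had 18.4 CPM in SI against 7.64 CPM in COL, with an adjusted p of 0.0363 that became 0.0783 with the donor mouse as a block and reached 0.102 in the 5 of 8 fits without a library in which its call was lost. Scaled by library size alone, neither Nlrp1b (adjusted p = 0.235) nor Naip5 (0.0909) was called. Pycard, the adaptor ASC that links sensors to caspase-1, had 154 ± 45.3 CPM in SI against 207 CPM in COL (adjusted p = 0.45).

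Of 4 other caspases examined, 3 were called as higher in SI and 0 as higher in COL, against 15.5% and 12.9% of all genes tested. Casp6, an executioner caspase, measured 586, 359.6, 465 and 511 CPM in SI1 to SI4, and 30.6, 23.4, 71.0 and 68.9 CPM in COL1 to COL4. No SI library came near the COL range (log2 fold change 3.31, SE 0.44, adjusted p = 0.000234). Casp8 had 111 CPM in SI against 53.1 CPM in COL (adjusted p = 0.0192). Casp9 had 31.8 CPM in SI against 14.7 CPM in COL, with an adjusted p of 0.0453 that became 0.0634 with the donor block. The calls of Casp8 and Casp9 were lost in 3 and 6 of the 8 fits that left out a library, with adjusted p up to 0.0663 and 0.134. Scaled by library size alone, only Casp6 of this list was called.

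Among the pathway lists compared here, the interleukin-1 family held the largest log2 fold change in each direction. Both come from genes with few counts in the tissue where they were low, so their size is uncertain. Of 13 genes listed, 12 were matched and 6 tested, with 2 called in each direction, against 15.5% (SI) and 12.9% (COL) of all genes tested. Il33, an alarmin of barrier tissues, measured 22.7, 33.3, 66.2 and 20.1 CPM in SI1 to SI4, and 0.117, 0.187, 0.936 and 0.272 CPM in COL1 to COL4, which rest on 3 to 35 counts. Its log2 fold change was 6.48 (SE 0.70, adjusted p = 5.81e-05), and SI3 was its highest SI library, as for Il18. Il18bp, the soluble antagonist of interleukin-18, had 17.1 ± 9.79 CPM in SI against 3.79 CPM in COL (log2 fold change 2.16, adjusted p = 0.011, or 0.0615 when scaled by library size alone). Il1rn, the interleukin-1 receptor antagonist, had 0.393 CPM in SI against 36.1 ± 17.5 CPM in COL (log2 fold change -6.52, adjusted p = 8.74e-05). Its SI level rests on 0 to 16 counts per library. Il1r1, the signalling receptor for interleukin-1, had 0.480 CPM in SI (0 to 19 counts) against 10.8 CPM in COL (adjusted p = 0.00479). Il1a and Il1b had 0 counts in every SI library and at most 8 and 14 counts in COL.

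**Figure D5:**
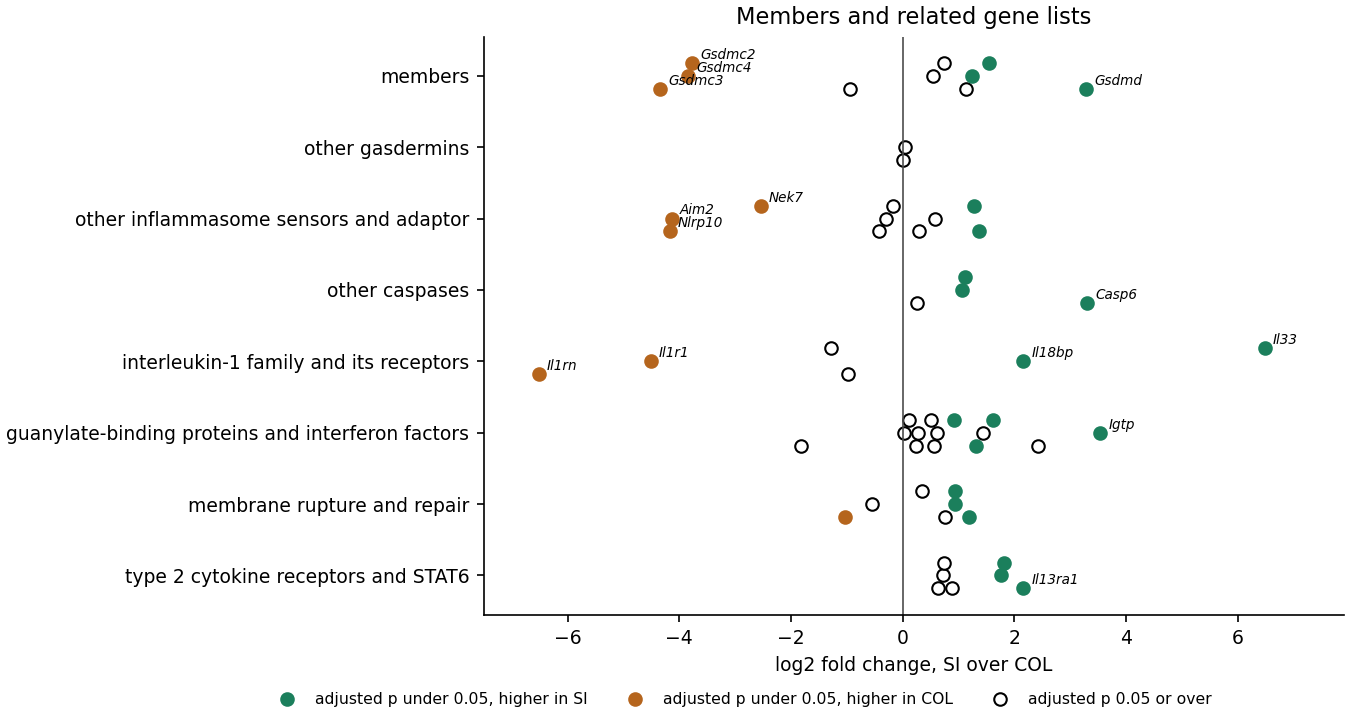
Log2 fold change of SI over COL for the tested genes of the members' list and 7 related lists, filled green or brown where the edgeR adjusted p is under 0.05 and open otherwise, with names beside called genes past a log2 change of 2. Caspases lie on the SI side, while sensors and the interleukin-1 family have called genes on both sides.

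Genes that act around these pathways were compared next. Guanylate-binding proteins, related GTPases and interferon factors help caspase-4 reach bacteria in the cytosol or control the genes of the pathway. Of 14 tested, 4 were higher in SI and 0 in COL, against 15.5% and 12.9% of all genes tested. Igtp, an interferon-inducible GTPase, measured 205, 117, 74.4 and 186 CPM in SI1 to SI4, and 1.76, 6.34, 10.9 and 30.9 CPM in COL1 to COL4 (log2 fold change 3.54, adjusted p = 0.0039). Irf1 (296 against 96.0 CPM, adjusted p = 0.0128), Irf8 (adjusted p = 0.0186) and Ifngr2 (adjusted p = 0.00511) were the others. Of the GTPases named for binding guanylate, none was called in this fit, and Gbp6 had an adjusted p of 0.0598 that became 0.0276 with the donor block. Other genes share 59.7% of the 50-base stretches of Gbp6. Irf8 lost its call in 2 of the 8 fits that left out a library (SI1 and COL3). Scaled by library size alone, 1 gene of the list was called in each direction, Igtp remaining higher in SI, while Irf1 (adjusted p = 0.109), Irf8 (0.657) and Ifngr2 (0.13) were no longer called.

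Of 7 genes for membrane rupture and ESCRT repair, 3 were called as higher in SI and 1 as higher in COL. The shares over all genes tested were 15.5% and 12.9%. Chmp4c, an ESCRT-III subunit, had 177 ± 48.6 CPM in SI against 78.2 CPM in COL (adjusted p = 0.0107). Vps4a and Vps4b, the ATPases that take ESCRT-III apart, had 25.7 against 13.4 CPM (adjusted p = 0.0411) and 106 against 55.6 CPM (adjusted p = 0.0248). Ninj1, which ruptures the membrane after pores have formed, had 7.83 CPM in SI against 16 CPM in COL (adjusted p = 0.0268). Of the 8 fits that left out a library, the calls of Ninj1, Vps4a, Vps4b and Chmp4c were lost in 6, 7, 4 and 1, with adjusted p up to 0.0889, 0.115, 0.0785 and 0.0537. Scaled by library size alone, 0 genes of this list were higher in SI and 2 in COL. With libraries of over 15% mitochondrial counts alone, no gene of this list was called.

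All 7 genes of the list for type 2 cytokine receptors and STAT6, which also holds Jak1 and Tyk2, were tested. Of these, 3 were called as higher in SI and 0 in COL, against 15.5% and 12.9% of all genes tested. Stat6 measured 336, 226, 224 and 316 CPM in SI1 to SI4, and 41.3, 63.0, 117 and 91.2 CPM in COL1 to COL4 (log2 fold change 1.82, adjusted p = 0.00343). Il13ra1 had 102 CPM in SI against 22.9 CPM in COL (adjusted p = 0.000691), and Il4ra had 79.6 and 23.6 CPM (adjusted p = 0.0147, or 0.138 when scaled by library size alone). Both are subunits of the receptor for interleukin-4 and interleukin-13. Whether the levels of this list bear on those of the Gsdmc genes was not tested.

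Markers of other cells differed between the tissues too, where 28.4% of all genes tested were called. Of 9 intraepithelial T cell markers, 8 were higher in SI, with a summed level of 177 to 644 CPM in SI and 15.5 to 129 CPM in COL. Of 5 leukocyte markers, Lcp1 was higher in SI, and their sum was 57.3 to 111 CPM in SI and 22.4 to 66.9 CPM in COL. Of 10 macrophage and dendritic cell markers, 7 were tested, Itgam and Fcer1g were higher in SI, Cd14 was higher in COL, and the sum was 25.4 to 38.1 CPM in SI and 35.1 to 89.1 CPM in COL. Cd14 alone made up most of the COL sum, with 32.3, 39.5, 46.1 and 75.7 CPM in COL1 to COL4. It measured 7.47, 5.92, 9.38 and 10.1 CPM in SI1 to SI4, so the sum does not show the direction of the other markers. Adgre1, Csf1r and Cx3cr1, which define macrophages, were too low to test. Of 5 neutrophil markers, only Ly6g could be tested (higher in COL), and S100a8 and S100a9 had 0 counts in SI and at most 5 in COL. Of 6 tuft cell markers, 5 were tested and 0 were called. Their part in the results above was not tested.

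Of 8 general epithelial markers, Vil1, Krt20 and Cldn7 were higher in SI, Krt18 was higher in COL, and 4 were not called. The share called over all genes tested was 28.4%. The villus enterocyte and Paneth cell markers fitted the tissue labels. All 10 villus enterocyte genes were higher in SI (summed level 63590 to 147700 CPM in SI and 272 to 918 CPM in COL). The SI libraries, prepared as crypts, thus held abundant transcripts of villus enterocyte genes. Of 6 Paneth cell genes, 5 were higher in SI. Of 9 surface colonocyte genes, 5 were higher in COL and 2 (Krt20 and Ceacam20) in SI, and of 7 goblet cell genes, 3 were higher in COL. Of 8 genes for the crypt base and proliferation, 0 were called. Their sum was 57.7 to 460 CPM in SI and 285 to 554 CPM in COL. The part of these cell types in the differences of the gasdermin and inflammasome genes was not tested.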

How the data were processed

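RNA was isolated from freshly prepared crypts and sequenced as paired ends. The authors trimmed the reads and aligned them to mm10, and they deposited raw counts per Ensembl gene, without normalization, in 1 table per tissue. Trimmomatic 0.36 and STAR 2.5.2b are named in the submitters' processing notes. The annotation release and the use of strand are not given in the sources used here. Symbols and coordinates came from GENCODE vM21 (GRCm38), which holds 45143 of the 45706 genes. RefSeq synonyms added Il36g.

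The counts were analysed in R 4.3.3. SI was compared with COL by the quasi-likelihood test of edgeR 4.0.16, with TMM normalization, filterByExpr (about 10 counts in a median library in 4 libraries, and 15 in all) and the Benjamini-Hochberg threshold of 0.05 over 14491 genes. The study's methods name limma, this contrast and the same threshold, without a normalization, filter or donor term. For CPM, each count was divided by its library's summed counts over the kept genes times the TMM factor. Ratios of counts used an added count of 0.5 and two-sided exact permutation tests over 70 assignments. The test was also run on simulated counts that varied less between libraries than these data, whose common dispersion was 0.245. That run therefore does not give error rates for these data. Groups and donor numbers came from the labels. SI and COL libraries were paired by mouse in those labels, and their deviations correlated at -0.24, 0.39, -0.08 and 0.33 in mice 1, 2, 3 and 5. Every pair of libraries of a tissue differed by more than sampling noise (chi-square per gene of at least 76.05).

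Alternatives were RLE factors, library size alone, DESeq2 1.42.0, limma-voom 3.58.1, other filters, the mouse as a block, adjustments for the mitochondrial share, and leaving out each library. The Gsdmc and Naip sums were added after the data had been seen. A few genes of these pathways are not reported here. The members and lists were chosen with earlier results of these data known. Named genes are the members, cell type markers, genes of the lists past the threshold or with at least 10 CPM in a tissue mean, and the 5 genes with the most similar pattern within tissues. Nlrp3, Gsdma, Gsdma2, Gsdma3, Gsdmc, Pjvk, Il1a, Il1b, Tex12, Gbp6 and Bco2 were named outside this rule. Counting error is small beside the spread between mice, except for genes with under 100 counts.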

Additional observations from a re-analysis of the deposited data

Results flagged for a closer look

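Among the 96 groups of 4 libraries tested (each tissue for the members and for the related genes that were called or reached 10 CPM), 6 held a library whose distance to the nearest other exceeded Dixon's 95% critical value, and chance flags about 1 in 20. None was a member. Naip6 stood at 126 CPM in SI2, against 66.5 to 74.1 CPM in the other SI libraries. Nlrp9b was at 81.6 CPM in COL2 (3.64 to 12.3 CPM in the others), and Jak1 was at 77.1 CPM there. Nlrp10 was at 0.458 CPM (10 counts) in SI4 and at 0 in the other SI libraries, where any value above 0 would have been flagged. Vps4a was at 39.4 CPM in SI1, and Il4ra at 24.2 CPM in SI3, where the other SI libraries held 95.2 to 103 CPM.

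Dhx15, an RNA helicase that can act with an NLR sensor, was higher in SI in both male mice, by 3.79 CPM on average, and lower in SI in both female mice. The interaction of tissue and sex in edgeR gave it an adjusted p of 0.939.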

How the results depend on the processing

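The calls of Gsdmc2, Gsdmc4 and Gsdmd held in all 20 alternative settings and that of Gsdmc3 in all 19 that could test it. Nlrc4 was called in 19 of 20, Casp4 in 13 and Naip1 in 5. Scaled by library size alone, under which the median gene went from a log2 fold change of -0.09 to -0.82, 1115 genes were higher in SI and 4788 in COL, against 2253 and 1863 with TMM, Nlrp6 became -0.21 and Casp1 -0.033 (0.61 and 0.79 relative to that median), Casp4 lost its call (adjusted p = 0.171) and Naip1 gained one (0.00262). With only the libraries of over 15% mitochondrial counts, 2264 genes were called (1381 in SI, 883 in COL), and 1 member was higher in SI. Nlrc4 (1.00, adjusted p = 0.173) and Casp4 (0.61, 0.48) lost their calls. The 4 libraries of under 15% gave 5530 genes and 6 members called, with Nlrc4 at 1.91 (0.00171) and Casp4 at 1.78 (0.0121), and the cause of the difference was not tested. Naip1 was also called by DESeq2 (0.0408), with at least 10 counts in every library (0.0381), without mitochondrial genes (0.0474) and without COL1 (0.0406), Il18 with no filter (0.0306), and Casp1 with the mitochondrial share as a covariate (0.0188). The Naip sum was 0.28 where Naip1 was -0.95. Without the filter, 78 genes were called in the sex interaction by edgeR, none a member.

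Leaving out each library gave 3167 to 4480 genes called, 1707 to 2393 higher in SI and 1442 to 2187 higher in COL, and 5 to 6 members, 2 to 3 higher in SI and 3 to 4 higher in COL. The ratio of Gsdmc4 to Gsdmc2 ranged from -0.19 to 0.24 and turned positive without SI1 (0.12), SI2 (0.04), COL3 (0.07) or COL4 (0.24). That of Il18 to Casp1 ranged from -0.20 to 0.57, with -0.20 without SI3. That of Gsdmd to the Gsdmc sum ranged from 6.86 to 8.21, and that of Naip1 to Nlrc4 from -2.52 to -2.22. Their exact permutation p was then 0.0571, the smallest that 3 against 4 libraries allow, and 0.125, the smallest possible, in the sign-flip test that pairs libraries by mouse (7.62 and -2.36). With the mouse as a block, 6 members were called by edgeR, and the block changed no call of a member. No member fell under the filter, so the test planned for that case was not needed. The 4 libraries per tissue limit what could be called.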
